A study of Mus musculus with 18 samples.

Results

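The gene models described here are 70 of the 27473 in a table of read counts from mouse 3T3-L1 adipocytes. They were selected on their values in this table: the mean level with lipopolysaccharide (LPS) was at least 2 times the mean without it under each of 2 hairpin vectors, and was at least 2 CPM (read counts scaled to a total of 1000000 outside chromosome M) in both LPS groups. In all, 93 gene models met those limits, and 23 of them lie in 15 mm9 regions that were left out by their position. The 70 are known only by UCSC known-gene identifiers and exon positions. No identifier occurred in the 2 name tables used, so no gene is named, no pathway or marker list could be counted, the adipocyte label could not be checked against markers, and the level of Irf3 itself is not given.

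RNA was sequenced from 18 libraries in 6 groups of 3, all from differentiated 3T3-L1 adipocytes at passage 15 that had been transduced with lentivirus for 6 days. 3T3-L1 is a mouse fibroblast line that can be turned into fat cells in culture. In the first arm, cells labelled as overexpressing Irf3 (titled 2D, here Irf3_2D, a name the labels do not explain) were compared with cells carrying an EGFP vector as the control. In the other arm, cells with a hairpin against Irf3 (shIrf3) and control cells (shLuc) were left without LPS or received it for another 6 days in medium renewed every other day (shIrf3+LPS and shLuc+LPS). Any difference in time in culture or in medium changes between the cells without and with LPS cannot be told apart from LPS here. All groups carry a lentiviral vector, and none is an untransduced culture. Neither the promoters nor the number of hairpin sequences used is stated. Whether the 3 replicates of a group were separate cultures is not stated, so p-values here reflect only how far these libraries differ, which may be technical variation.

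LPS, from the outer membrane of Gram-negative bacteria, is sensed by the receptor TLR4. The receptor signals through one branch that activates NF-kB and raises cytokine, chemokine and acute-phase genes, and through another that activates IRF3, which switches on interferon beta and interferon-stimulated genes. Adipocytes carry this receptor, and several acute-phase and complement proteins are made by fat tissue. The vectors in the study are labelled as raising or lowering Irf3 in such cells, and no value given here checks that. The questions for the selected gene models are how they differ in their rise with LPS, and whether their levels differed between each vector and its control.

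Total counts ran from 22143302 to 34368259 per library. The shLuc libraries stood apart from each other: chromosome M took 14.2% of the counts in replicate 1, against 2.88% and 5.19% in the others, while in each of the other groups the highest share was within 1 percentage point of the lowest. The chi-square statistic over its degrees of freedom was 350 and 199 in the pairs of shLuc replicate 1 with replicates 2 and 3 and 55.9 between the latter, and at most 15.6 in the pairs of any other hairpin group. In the first arm, Irf3_2D replicate 2 differed most from its group, this statistic being 112 and 91.7 in its pairs with the others and 10.8 between those. The part of these libraries in the results was not tested, and counts without them are given beside the comparisons they touch.

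The 70 gene models lie on 19 chromosomes, 8 on chromosome 11, 8 on chromosome 6 and 7 on chromosome 12. Their exons number from 1 to 41 with a median of 8, against 5 over all gene models, and their exon length has a median of 2520 bases against 2040. In all, 59 stand alone and 11 form 4 runs whose neighbours lie within 200 kb of each other. The longest run holds 5 gene models on the plus strand at chr12:105452754-105652539. A pair at chr6:48783811-48795857 lies head to head on opposite strands, and a pair at chr5:105644718-105722718 overlaps on the minus strand and ends at the same base. The libraries do not mark strand, 3 of the 70 have exons on both strands and 12 overlap another gene model, so reads in such places could belong to a neighbour.

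**Figure D1:**
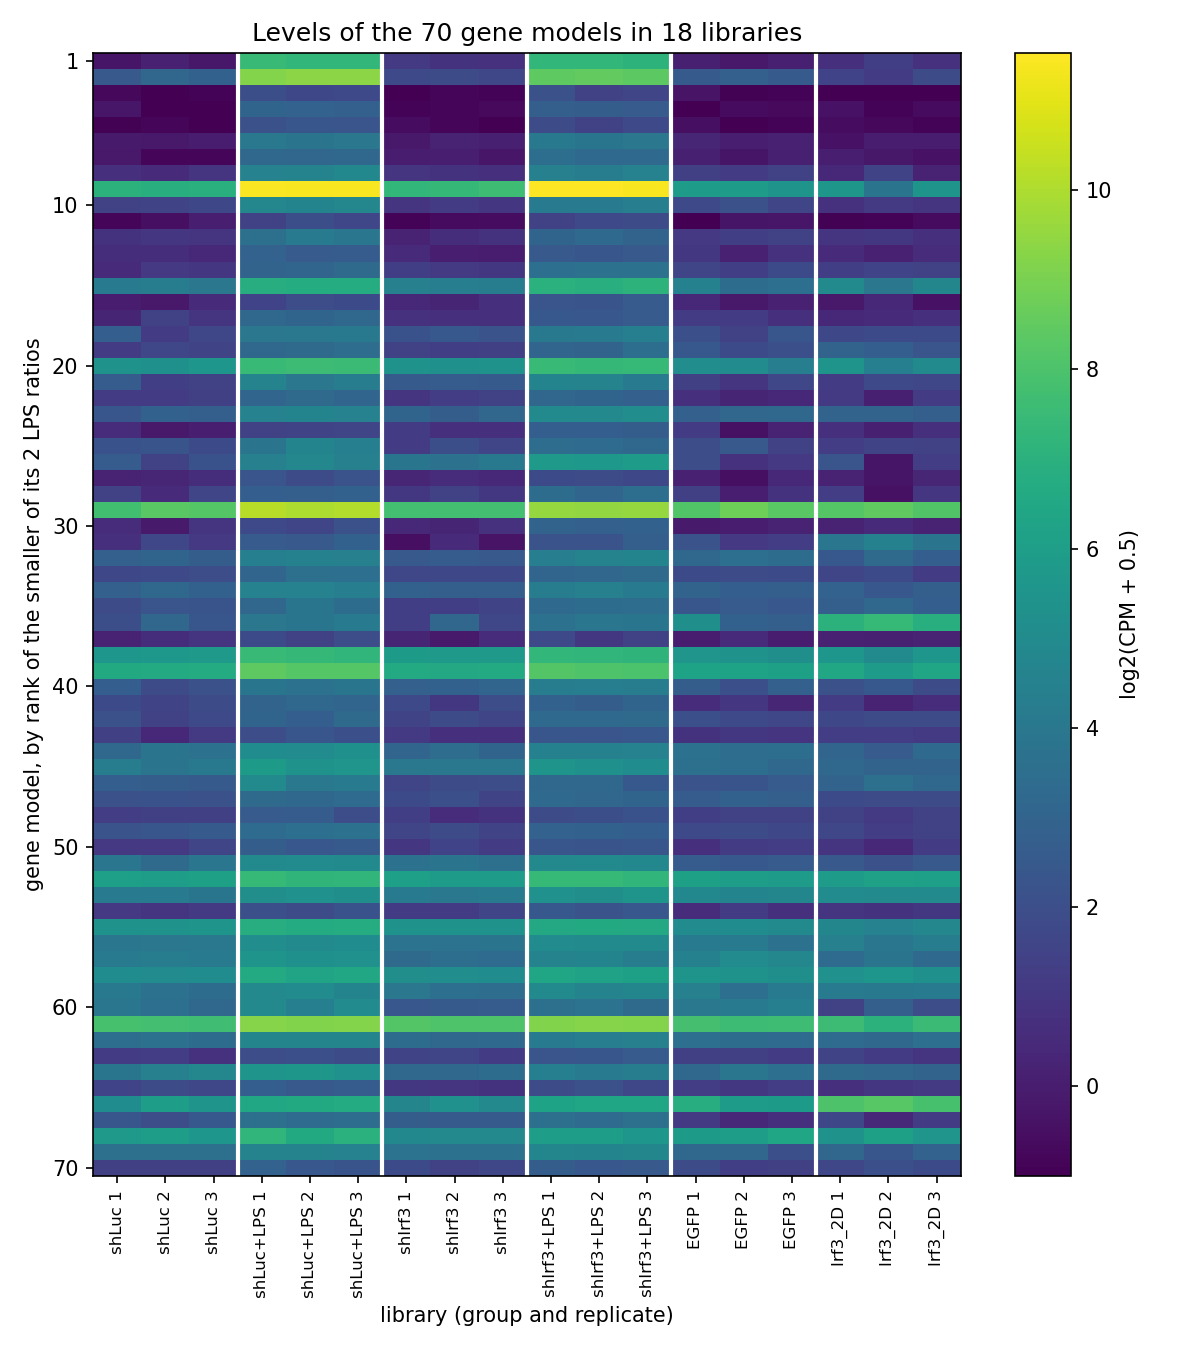
Level of each of the 70 gene models (rows, ranked by the smaller of the LPS ratios under the 2 hairpins) in each of the 18 libraries (columns, grouped), as log2(CPM + 0.5). Within each hairpin the 3 LPS libraries are brighter than the 3 untreated ones in every row, a pattern that the selection sought in the group means, and most of the top 10 rows are dark without LPS.

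The LPS contrasts chose these gene models, so their rise is described and not tested. With shLuc the ratio of means ran from 2.00 to 381 with a median of 3.14, and with shIrf3 it ran from 2.00 to 117 with a median of 3.25. The smaller of the 2 ratios was under 3 for 37 gene models, at least 5 for 15, at least 10 for 10 and at least 20 for 7. The LPS ratio was larger with shLuc for 39 and larger with shIrf3 for 31. For each of the 70, the lowest LPS library lay above the highest untreated library under both hairpins. The rule used the means of these same libraries, and the share over all gene models was not computed, so nothing is read from this. edgeR called 69 of the 70 higher in each contrast, where 4.27% of all 14970 tested gene models were called higher with shLuc and 4.17% with shIrf3, and nothing is read from that count because the rule used these contrasts. At the edge of the rule, the member with the lowest smaller ratio was a 2-exon model at chr4:133036048-133043855 with 2.002, and the nearest one outside was a 14-exon model at chr16:55811490-55838754 with 1.991. At the limit on level, a member at chr6:129781172-129826690 had a lower LPS mean of 2.23 CPM and a model outside at chr11:4157571-4172517 had 1.99 CPM.

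The steepest rise was that of uc008jfl.1 (chr2:32240157-32243259, minus strand, 6 exons). Its level with shLuc was 0.305, 0.618 and 0.377 CPM without LPS, and 181, 155 and 159 CPM with LPS. With shIrf3 it was 1.69, 1.26 and 1.23 CPM without LPS, and 158, 157 and 136 CPM with LPS. The gene model was thus close to 0 in untreated cells and among the 10 strongest of the set with LPS, a ratio of 381 with shLuc, where 35 counts over 3 libraries form the base, and of 108 with shIrf3.

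The second was uc009nin.2 (chr8:112099028-112103072, minus strand, 5 exons). It stood at 5.22, 8.18 and 7.0 CPM in shLuc and at 593, 648 and 649 CPM in shLuc+LPS. In shIrf3 it stood at 2.94, 3.30 and 2.71 CPM and in shIrf3+LPS at 346, 372 and 328 CPM. Its ratios were close to each other, 92.6 and 117, while its level was lower with shIrf3 both without and with LPS, with no overlap between the hairpins.

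The median ratio was lower where the level before LPS was higher, with wide overlap. For 10 gene models there was an untreated mean under 1 CPM with both hairpins, and for these the smaller ratio had a median of 15.6 and ran from 3.31 to 64.1. For the 36 whose higher untreated mean was between 1 and 10 CPM the median was 3.01 and the range 2.00 to 108. For the 24 at 10 CPM or more the median was 2.28 and the range 2.00 to 16.4. The steepest members, uc008jfl.1 and uc009nin.2, were among the 36 and not among those under 1 CPM. The untreated mean is the denominator of the ratio, and both LPS means had to reach 2 CPM. A gene model under 1 CPM without LPS could thus enter only with a ratio above 2, and a higher one the lower its base. Part of this order therefore follows from the selection. A ratio over a level near 0 also carries a large counting error, so this order is only a description. In the chromosome 12 run, a 7-exon model at chr12:105452754-105459339 had 3 counts over the 3 shLuc libraries and 355 with LPS, a ratio of pooled counts of 115 with a 95% exact interval of 39 to 559 that covers counting error only. A 6-exon model at chr12:105501332-105507575 went from 3 to 221 counts with shIrf3, a ratio of 75.8 with an interval of 25.6 to 370.

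That run contained 4 of the 7 gene models with a smaller ratio of at least 20. Among them, the models at chr12:105452754-105459339 and chr12:105452754-105480144 start at the same base on the plus strand and overlap. How reads common to them were assigned is not stated, so they may not be separate observations. The 4 at its upstream end had untreated means of at most 0.464 CPM and LPS means between 2.72 and 9.89 CPM. The remaining member of the run, uc007oxg.1 (chr12:105644918-105652539, 5 exons), lies apart from them and was present before LPS, with means of 4.40 CPM in shLuc and 7.21 CPM in shIrf3 and ratios of 3.11 and 2.66. In the run on chromosome 1 the neighbours also differed. A 10-exon model at chr1:136078981-136086608 rose from 0.448 to 14.9 CPM with shLuc, a ratio of 33.2, and its 13-exon neighbour at chr1:136090025-136132008 from 2.74 to 5.67 CPM, a ratio of 2.07. The head-to-head pair on chromosome 6 had ratios near to each other, 3.12 and 3.20 with shLuc and 2.71 and 2.74 with shIrf3.

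**Figure D2:**
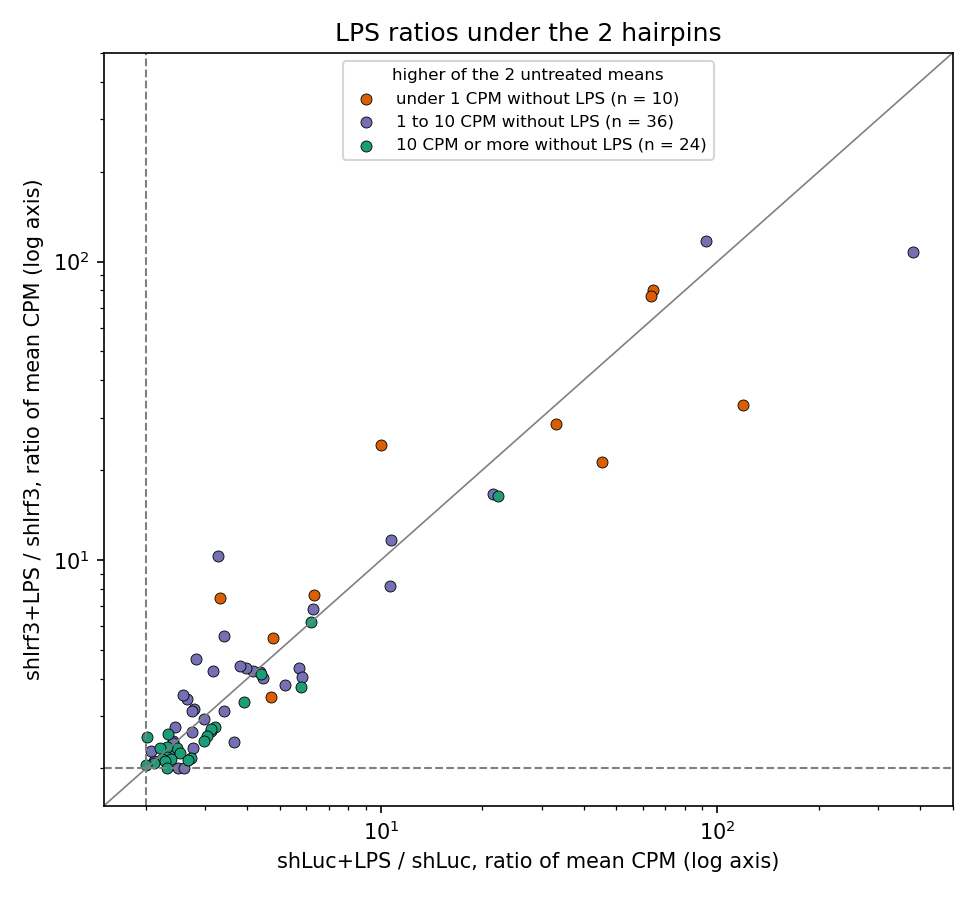
Ratio of mean CPM with and without LPS under shLuc (x) and shIrf3 (y) for the 70 gene models, both on log axes, coloured by the higher of the untreated means. The dashed lines mark the selection limit of 2 and the diagonal equal ratios. Most gene models at 10 CPM or more lie close to the limit, and those under 1 CPM have smaller ratios from 3.31 to 64.1. The largest smaller ratio, 108, belongs to a gene model between 1 and 10 CPM.

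Summed over the 70, the level was 1357 ± 61.0 CPM (SD, n = 3) in shLuc and 7425 ± 231 CPM in shLuc+LPS, and 1333 ± 16.1 CPM in shIrf3 and 6627 ± 204 CPM in shIrf3+LPS. These sums were 5.47 and 4.97 times higher with LPS and were not tested. A few gene models carried them: 10 had at least 100 CPM in both LPS groups and made up 82.9% of the sum in shLuc+LPS and 83.8% in shIrf3+LPS, while 26 stayed under 10 CPM in both.

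The strongest was a 41-exon model at chr17:57343396-57367559. It measured 134, 114 and 124 CPM in shLuc and 2843, 2707 and 2710 CPM in shLuc+LPS. In shIrf3 it measured 158, 164 and 201 CPM, and in shIrf3+LPS 2960, 2922 and 2681 CPM. It alone made up 37.1% of the sum in shLuc+LPS and 43.1% in shIrf3+LPS. Per kilobase of exon its level with LPS was 536 CPM in shLuc+LPS and 556 CPM in shIrf3+LPS, against 468 and 259 CPM per kilobase for uc009nin.2 and 193 and 176 CPM per kilobase for uc008jfl.1. In bulk RNA, more cells expressing a gene model and more RNA per cell cannot be told apart.

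The overexpression arm received no LPS, and its values were not used in the limits on ratio and level. It was used to ask whether the selected gene models also differed between Irf3_2D and EGFP. Gene models in the left-out regions are not among them, and the comparisons were chosen with earlier results of these data known. Of the 66 that could be tested, 2 were called higher and 4 lower in Irf3_2D than in EGFP. The calls are from the edgeR quasi-likelihood test, Benjamini-Hochberg adjusted over all 13931 gene models tested. The background was 0.811% called higher and 0.639% called lower among all tested, and the shares of the 66 were 3.03% and 6.06%. An unadjusted p under 0.05 was found for 19 of the 66 and for 1512 of all tested. The median log2 fold change of the 66 was -0.08, against 0.02 over all tested, with 26 above 0 and 40 below. The 4 not tested were too low in this arm, 3 of them in the chromosome 12 run and the other at chr9:109749891-109751970.

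Both gene models that rose lie on the minus strand of chromosome 5, where their spans overlap and end at the same base, and how reads common to them were assigned is not stated, so they may not be separate observations. For uc008ykz.2 (chr5:105644718-105668552, 11 exons) the EGFP libraries had 4.15, 1.64 and 1.89 CPM and the Irf3_2D libraries 14.7, 22.4 and 13.7 CPM, so that the log2 fold change was 2.74 ± 0.37 (adjusted p = 0.018 with edgeR; ± here and below gives the SE of a log2 fold change). For uc012eaf.1 (chr5:105644718-105722718, 12 exons) the levels were 112, 57.3 and 56.6 CPM in EGFP and 259, 312 and 235 CPM in Irf3_2D, a log2 fold change of 1.85 ± 0.27 (edgeR adjusted p = 0.0196). The Irf3_2D libraries lay above every EGFP library at both. The levels in Irf3_2D also lay above those with LPS, where uc012eaf.1 reached a mean of 96.6 CPM in shLuc+LPS and 80.3 CPM in shIrf3+LPS; this comparison crosses arms with different vectors and was not tested.

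Of those that fell, uc007hxm.1 (chr11:5800824-5849602, minus strand, 11 exons) had 16.0, 17.4 and 20.6 CPM in EGFP and 2.32, 6.54 and 3.41 CPM in Irf3_2D, a log2 fold change of -2.14 ± 0.36 (edgeR adjusted p = 0.0266). For uc011xpv.1 (chr10:127238209-127252895, plus strand, 4 exons, overlapping 1 other gene model) the levels were 21.9, 32.1 and 27.1 CPM in EGFP and 9.75, 13.6 and 9.34 CPM in Irf3_2D, a log2 fold change of -1.31 ± 0.22 (edgeR adjusted p = 0.0264). In neither did the groups overlap. The other two were the 5-exon model on chromosome 8 described above, with 5.42, 6.62 and 5.42 CPM in EGFP and 2.35, 1.81 and 3.22 CPM in Irf3_2D (log2 fold change -1.25 ± 0.22), and a 5-exon model at chr17:48485726-48491598 (log2 fold change -1.03 ± 0.18). The first of these is the model whose rise with LPS was the second steepest.

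The calls were lost when some single libraries were left out, while the differences kept their direction and much of their size. Without EGFP replicate 2, EGFP replicate 3 or Irf3_2D replicate 1 edgeR called 0 members higher and 0 lower, while over all gene models it then called at most 4 higher and 9 lower. Without Irf3_2D replicate 3 the member counts were 2 and 0, against 41 and 14 over all gene models. Without Irf3_2D replicate 2 they were 2 and 7, against 473 and 548. The call of uc012eaf.1 was then lost and that of uc008ykz.2 kept, so the 2 called higher were not the same gene models. Without EGFP replicate 1 the member counts were 3 and 4, against 170 and 105. Over the 14 alternatives, each library left out included, the log2 fold change ran from 2.43 to 3.26 for uc008ykz.2, from 1.67 to 2.24 for uc012eaf.1, from -2.71 to -1.82 for uc007hxm.1 and from -1.55 to -1.19 for uc011xpv.1.

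One gene model with a larger difference was not called. A 2-exon model at chr11:57997345-58003700, singled out after its values were seen, had 37.6, 7.04 and 6.45 CPM in EGFP and 133, 165 and 115 CPM in Irf3_2D. Its groups did not overlap, but EGFP replicate 1 stood apart from the other two, and the log2 fold change of 3.04 ± 0.66 had an edgeR adjusted p of 0.0882. The same library was also well above the other EGFP libraries at uc008ykz.2 and uc012eaf.1, which were called. The chromosome 11 model was also the one member of the 70 that edgeR did not call in either LPS contrast.

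Without LPS, 6 members were called higher and 11 called lower with shIrf3 than with shLuc, and all 70 were tested. The background was 4.65% higher and 3.91% lower among 14970 gene models tested, and the members' shares were 8.57% and 15.7%. The members' median log2 fold change was -0.12, against -0.02 over all tested, and 26 lay above 0 and 44 below. This contrast is not the one that selected the gene models, but the selection used the means of both untreated groups as the bases of its ratios. Nothing is therefore read from these shares about the set.

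The largest rise by the naming rule was that of uc008nuj.1 (chr2:164179806-164185150, minus strand, 5 exons). Its levels were 5.86, 2.26 and 3.94 CPM in shLuc and 14.3, 12.7 and 16.0 CPM in shIrf3, a log2 fold change of 1.79 ± 0.26 (edgeR adjusted p = 0.00299). In the overexpression arm it was at 3.45, 1.22 and 1.63 CPM in EGFP and 4.47, 0.325 and 1.94 CPM in Irf3_2D, where the groups overlapped. The chromosome 12 model uc007oxg.1 followed with 6.13, 3.20 and 3.85 CPM in shLuc and 6.63, 7.04 and 7.96 CPM in shIrf3, a log2 fold change of 0.67 ± 0.19 (edgeR adjusted p = 0.0365). Its highest shLuc library lay just below its lowest shIrf3 library, and the call was lost in 13 of 21 alternatives, among them 11 of the 12 fits that left out 1 library, the exception being shLuc replicate 1, where the log2 fold change was 1.06. The other four called higher were the steepest LPS responder uc008jfl.1 (1.64 ± 0.24), the strongest gene model on chromosome 17 (0.46 ± 0.10), a 29-exon model on chromosome 10 taken up below (1.04 ± 0.29) and a 7-exon model at chr10:87785549-87819820 (0.30 ± 0.07), each value a log2 fold change with its SE.

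Of those that fell, uc009nin.2 had the log2 fold change -1.20 ± 0.14 (edgeR adjusted p = 0.00017) on the levels given above. For uc007yux.1 (chr16:25683851-25892174, plus strand, 17 exons, overlapping 1 other gene model) the levels were 13.9, 21.8 and 27.2 CPM in shLuc and 8.99, 8.88 and 10.3 CPM in shIrf3, a log2 fold change of -1.16 ± 0.17 (edgeR adjusted p = 0.00161). The shLuc values were widely spread, and the lowest of them still lay above every shIrf3 library. The other nine had log2 fold changes between -1.86 and -0.35. The smallest of these falls was that of a 21-exon model at chr3:19857054-19908792, one of the 2 strongest in the set with LPS, which had 215, 325 and 296 CPM in shLuc and 218, 221 and 224 CPM in shIrf3, so that its groups overlapped.

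The counts moved with the libraries used. Without shLuc replicate 1, the one with the high chromosome M share, 9 members were higher and 13 lower, against 1623 and 1121 over all gene models. With every library in the fit the latter were 696 and 585. Without shIrf3 replicates 1, 2 or 3 the member count called higher was 3, 3 and 2, and without shLuc replicate 3 it was 3. Over all gene models it was then 284, 366, 370 and 376. Without shIrf3 replicate 1 the count called lower was 6 members, against 226 over all gene models.

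With LPS present, shIrf3+LPS differed from shLuc+LPS in 6 members called higher and 17 called lower. The background was 4.9% higher and 3.31% lower among 14970 tested, and the members' shares were 8.57% and 24.3%. The selection used the means of both LPS groups, so nothing is read from these shares about the set. The members' median log2 fold change was -0.16, against 0.00 over all tested, and 24 lay above 0 and 46 below.

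The largest rise was that of uc007gdo.1 (chr10:79982330-80001869, minus strand, 29 exons), a weakly expressed model with 2.26, 2.51 and 2.56 CPM in shLuc+LPS and 6.19, 6.30 and 5.92 CPM in shIrf3+LPS. Its log2 fold change was 1.32 ± 0.20 (edgeR adjusted p = 0.000787). For uc008nuj.1 the levels were 21.2, 27.2 and 21.4 CPM in shLuc+LPS and 52.6, 50.1 and 59.1 CPM in shIrf3+LPS, a log2 fold change of 1.20 ± 0.22 (edgeR adjusted p = 0.00768). The groups were well apart at both. When all 18 libraries were fitted together the adjusted p of uc008nuj.1 was 0.151. The other four called higher had log2 fold changes between 0.42 and 1.19, the largest that of a 2-exon model at chr6:128901222-128925047.

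The largest fall was that of uc009fud.1 (chr7:26682683-26711643, plus strand, 10 exons), with 30.5, 15.7 and 17.7 CPM in shLuc+LPS and 9.01, 8.61 and 4.89 CPM in shIrf3+LPS, a log2 fold change of -1.50 ± 0.26 (edgeR adjusted p = 0.0055). With only the 6 libraries compared in the fit its adjusted p was 0.064. The gene model uc007hxm.1 had 28.9, 21.1 and 32.6 CPM in shLuc+LPS and 11.8, 13.1 and 9.42 CPM in shIrf3+LPS, a log2 fold change of -1.27 ± 0.22 (edgeR adjusted p = 0.00422). At the steep responder uc009nin.2, whose levels are given above, the log2 fold change was -0.86 ± 0.09. At the abundant 21-exon model on chromosome 3 the levels were 1183, 1025 and 1073 CPM in shLuc+LPS and 742, 720 and 746 CPM in shIrf3+LPS, a log2 fold change of -0.58 ± 0.10. The remaining falls lay between -1.19 and -0.20. An 8-exon model at chr1:21230670-21255640, whose log2 fold change was -1.13 ± 0.15, had 151, 99.0 and 128 CPM in shLuc+LPS and 63.3, 62.3 and 47.8 CPM in shIrf3+LPS.

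Without shLuc replicate 1 the member counts were 8 higher and 19 lower, against 1185 and 865 over all gene models. With every library in the fit the latter were 733 and 495. The member count called higher was 3 without shIrf3+LPS replicate 1, shIrf3+LPS replicate 3, shLuc+LPS replicate 1 or shLuc+LPS replicate 2. Over all gene models it was then 336, 362, 546 and 386. Whichever library was left out, the count called lower stayed between 12 and 19 for the members, and between 198 and 910 over all gene models.

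The knockdown comparisons without and with LPS share no library, though the same fit gave their spread. In all, 2 gene models were called higher in both, uc008nuj.1 and uc007gdo.1, 9 were called lower in both, and edgeR called 0 in opposite directions. Over all 14970 gene models tested, 2.58% were called higher in both, 1.72% lower in both and 0% in opposite directions. The choice of members used these libraries, and the members' shares were not tested against those over all gene models. Against the overexpression arm, 3 gene models that were lower in Irf3_2D than in EGFP were also lower with shIrf3 in both comparisons, namely uc009nin.2, uc011xpv.1 and uc007hxm.1. That is 3 of the 66 members tested in both arms. Over the 13892 gene models tested in both arms, 41 were lower in all 3 comparisons, or 0.295%. This pattern was thus also found outside the set, and the shares were not tested against each other. In uc011xpv.1 the shLuc libraries had 17.1, 19.1 and 17.3 CPM and the shIrf3 libraries 9.62, 11 and 10.1 CPM without LPS, a log2 fold change of -0.82 ± 0.11. With LPS the levels were 44.9, 38.9 and 40.2 CPM in shLuc+LPS and 23.5, 24.8 and 18.4 CPM in shIrf3+LPS, a log2 fold change of -0.90 ± 0.10.

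A call higher in Irf3_2D together with one lower in shIrf3 without LPS was found for 1 of the 66 members tested in both arms. It was found for 7 of the 13892 gene models, or 0.0504%, and these shares were not tested against each other. The other opposite pairs of calls between the arms held 0 members, and their share over all gene models was not computed. In uc008ykz.2, which was higher in Irf3_2D, the levels were 1.12, 2.66 and 1.63 CPM in shLuc and 0.223, 0.918 and 0.279 CPM in shIrf3, a log2 fold change of -1.86 ± 0.47 (edgeR adjusted p = 0.0289). With LPS they were 5.61, 5.12 and 6.92 CPM in shLuc+LPS and 4.14, 4.12 and 6.32 CPM in shIrf3+LPS, where the groups overlapped and no call was made.

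**Figure D3:**
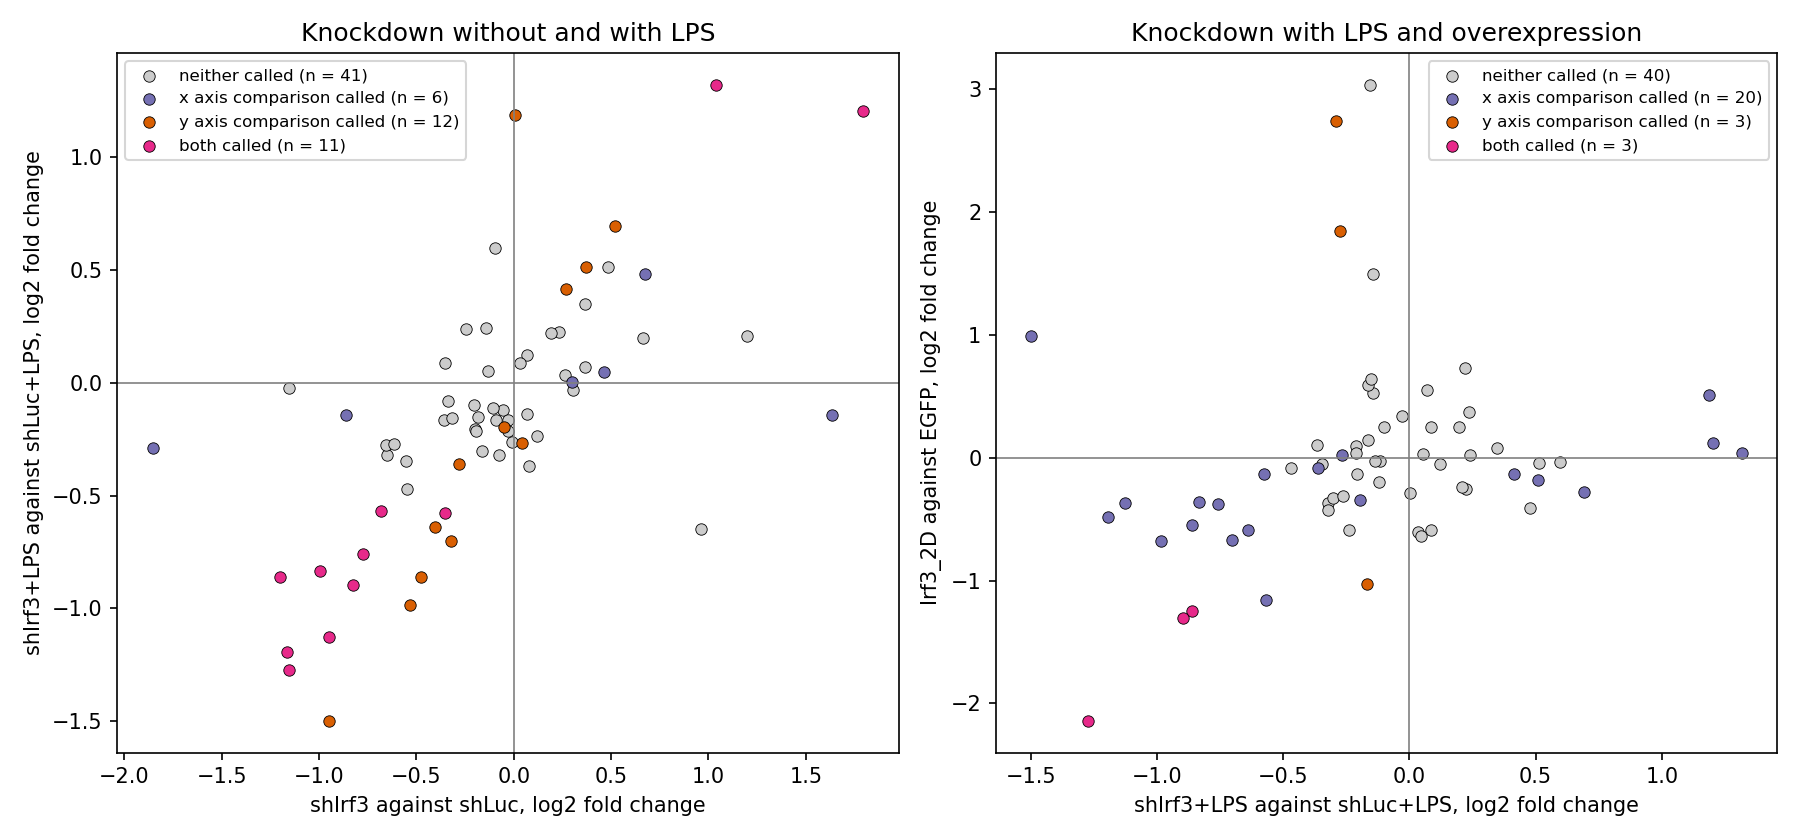
Fitted log2 fold changes of the gene models, without LPS against with LPS for the knockdown (left, 70 gene models) and knockdown with LPS against overexpression (right, the 66 tested in both), coloured by which comparison was called at an adjusted p under 0.05. On the left the 11 called in both lie in the lower left and upper right; on the right the 3 called in both lie at the lower left.

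**Figure D4:**
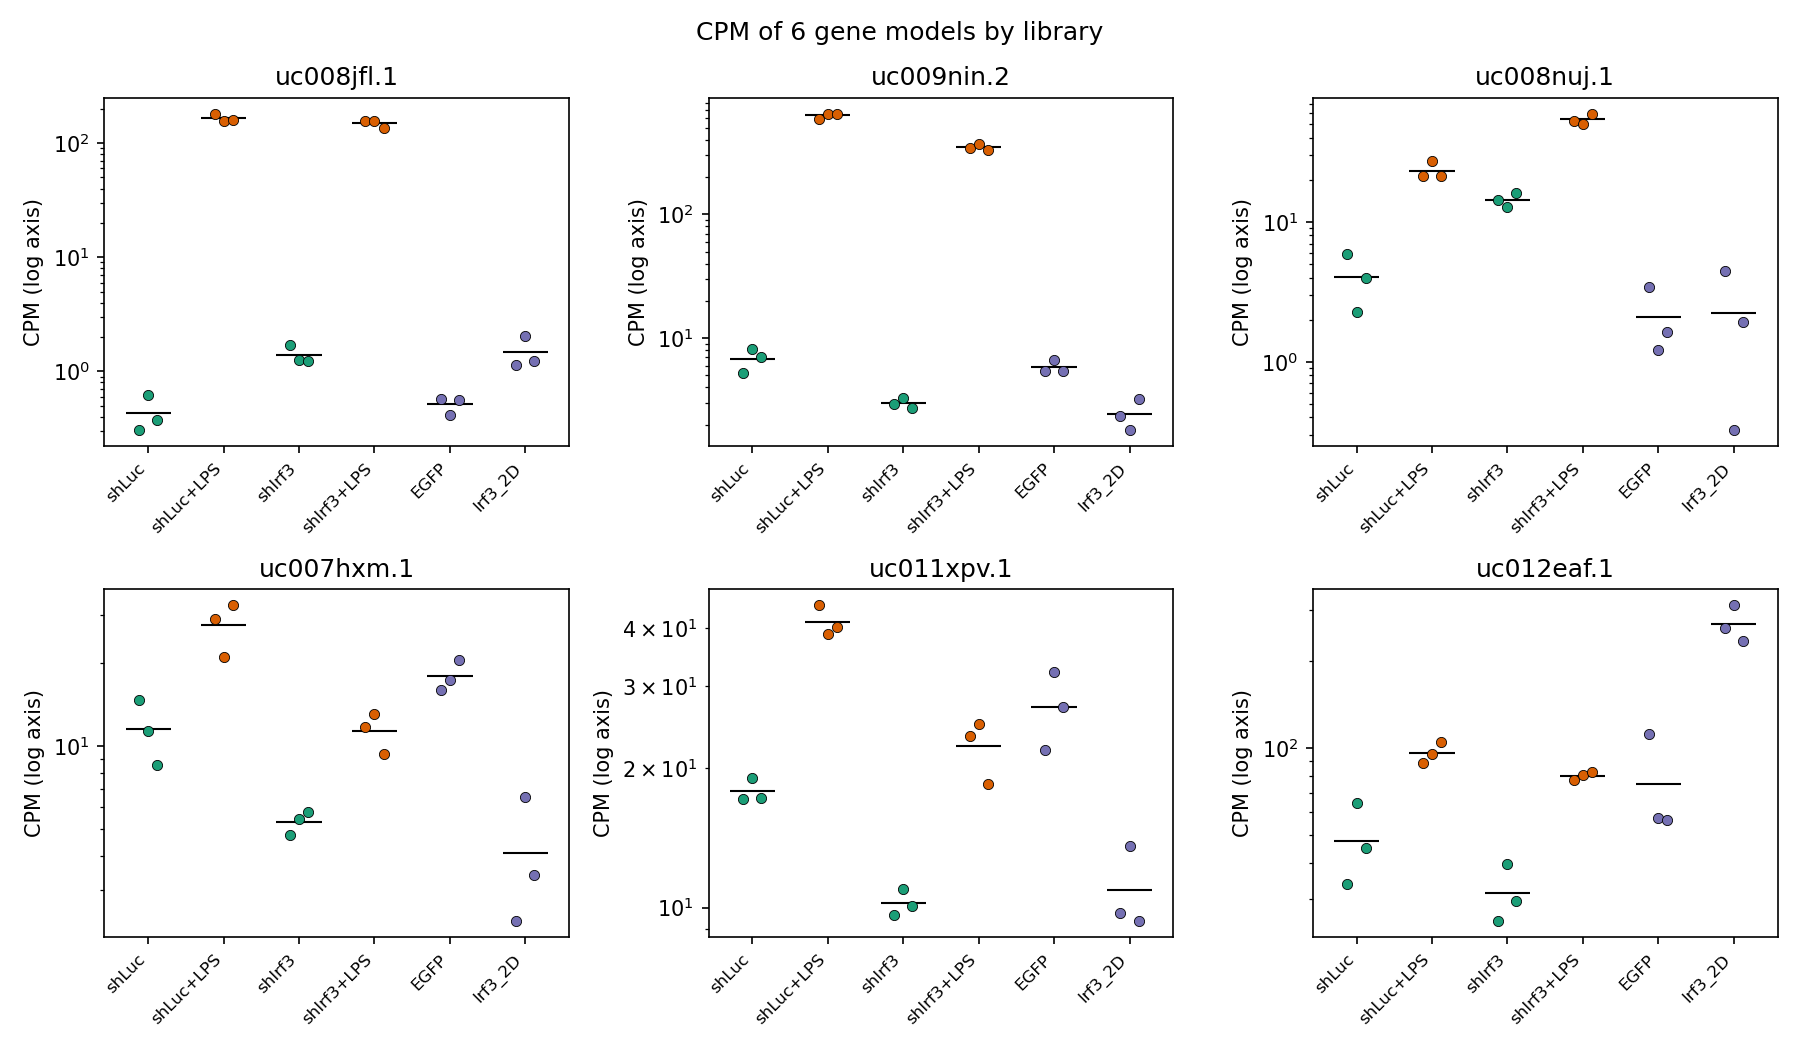
CPM of 6 named gene models in each library (points; orange with LPS, green without LPS, violet in the overexpression arm) with group means (lines), on log axes that differ between panels. uc009nin.2, uc007hxm.1 and uc011xpv.1 are lower with shIrf3 than with shLuc and lower in Irf3_2D than in EGFP, and uc012eaf.1 is highest in Irf3_2D.

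Whether the rise with LPS differed between the hairpins was fitted as an interaction. It is built from the contrasts that selected the gene models, and both ratios had to reach 2, so it is a description for this set. With edgeR 0 of the 70 and 0 of the 14970 tested were called, a background of 0% higher and 0% lower, and 9 members and 848 gene models had an unadjusted p under 0.05. DESeq2 called 1 member and 12 gene models over all, 9 with a larger and 3 with a smaller response in shIrf3, and limma-voom called 0. Without shLuc replicate 1 edgeR called 1 member, with a smaller response in shIrf3, against 4 larger and 11 smaller over all gene models. Without shLuc replicate 2 it called 1 member smaller, against 14 larger and 2 smaller over all gene models. The median interaction of the members was a log2 value of -0.02, against 0.01 over all tested.

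The member with the smallest adjusted p was uc008jfl.1, with a log2 interaction of -1.78 ± 0.26 (edgeR adjusted p = 0.0513). Its LPS levels overlapped between the hairpins, and the difference lay in the untreated cells, where every shIrf3 library was above every shLuc library. In the overexpression arm it had 0.575, 0.418 and 0.559 CPM in EGFP and 1.1, 2.0 and 1.2 CPM in Irf3_2D, not overlapping and not called (log2 fold change 1.5 ± 0.36, edgeR adjusted p = 0.0923). Over 20 other settings, recorded for this gene model after its value was seen, the log2 interaction ran from -2.12 to -1.60 and the adjusted p from 0.000105 to 0.339, and 6 of the settings called it.

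For comparison, the 23 gene models that met the same limits in the left-out regions had 4 called higher and 1 lower of 20 tested in Irf3_2D, and 30 gene models whose means were at least 2 times lower with LPS under both hairpins had 0 higher and 1 lower of 30. The background for Irf3_2D was 0.811% higher and 0.639% lower. In shIrf3+LPS against shLuc+LPS the first set had 5 higher and 5 lower of 23, or 21.7% each. The second had 11 higher and 0 lower of 30, or 36.7% and 0%. There the background was 4.9% higher and 3.31% lower. Both sets were chosen on the means of these LPS groups, so nothing is read from these shares. The differences between these sets were not tested.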

How the data were processed

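The tools named, per the submitters' processing notes, are featureCounts 1.4.6, TopHat2 2.0.14, bcl2fastq 2.17.1.14, SAMtools 0.1.19, Picard 2.2.4 and edgeR, on build mm9, with no settings given. Per the labels' protocols, 70 ng of total RNA was depleted of ribosomal RNA, and the library kit does not mark strand. The deposited values are raw counts per gene model, with exon positions and length per the file headers. A lookup of the 27473 identifiers matched 0 entries of the gene name table and 0 of the RefSeq gene table, so no names or sequences are given.

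From these, CPM over counts outside chromosome M were computed for levels and for the selection. A gene model was left out where its span overlapped a listed region. The members, lists and comparisons were chosen with earlier results of these data known. Counts were tested with edgeR 4.0.16 in R 4.3.3 (filterByExpr, TMM, robust quasi-likelihood F test, adjusted p under 0.05), in one fit of 6 libraries for overexpression and one of 12 for the hairpin groups. The coefficient of variation between libraries was 0.171 and 0.091. The SE was taken as the absolute log2 fold change over the root of the F value. The edgeR step was tested on simulated data. Per comparison and direction, the named gene models are the first 2 by fold among called members that reach a mean of 5 CPM and whose groups do not overlap; for LPS, the 2 with the largest smaller ratio among those with at least 5 CPM in both LPS groups and a count in each untreated group. Other settings tried were limma-voom (limma 3.58.1), DESeq2 1.42.0, other scalings, no low-count filter, no chromosome M gene models, a replicate block, other sets of libraries and each library left out.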

Additional observations from a re-analysis of the deposited data

How the results depend on the processing

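A ratio limit of 1.5 gave 177 gene models and one of 4 gave 22. With TMM-scaled CPM 64 were selected, all of them among the 70, and the median ratio of the 70 was 3.02 with shLuc and 3.16 with shIrf3. Leaving out 1 library gave 67 to 79. The count higher in Irf3_2D was 5 with DESeq2, 5 when all 18 libraries were fitted together, and 0 to 3 with 1 library left out; the count lower was 7 with all 18 libraries and 0 to 7 with 1 left out. The count higher in shIrf3 was 2 with all 18 libraries, 2 with the 6 compared and 2 to 9 with 1 left out, and the count lower was 6 with all 18 and 6 to 13 with 1 left out. In shIrf3+LPS the count higher was 3 with library totals only, 2 with all 18, 10 with the 6 compared and 3 to 9 with 1 left out, and the count lower kept within 1.5 times of 17 in every alternative run. A smaller LPS response in shIrf3 was called for 1 gene model with DESeq2, 1 with library totals only, 1 with no low-count filter, 1 without chromosome M gene models and 0 to 1 with 1 library left out. Counts over all gene models also moved, for Irf3_2D from 113 higher and 89 lower to 464 and 478 with all 18 libraries. No fold change of a named gene model reversed. With a replicate block the counts, higher and lower, were 2 and 4 for Irf3_2D, 6 and 13 for shIrf3, 6 and 19 for shIrf3+LPS, and 0 and 0 for the interaction. Deviations of same-numbered libraries correlated between -0.0251 and 0.106 (median 0.0188) in the hairpin arm and between -0.258 and 0.297 in the overexpression arm. For differently numbered libraries the ranges were -0.101 to 0.0744 (median -0.0226) and -0.311 to 0.369. These overlapping ranges do not settle whether the replicate numbers pair the libraries. Depth limits the gene models near 0 CPM without LPS, whose ratios rest on a few counts.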
